A study of Mus musculus with 17 samples.

Results

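Skin leukocytes of SARAWT mice were compared after bleomycin and after phosphate-buffered saline (PBS) in a mouse model of scleroderma, in which bleomycin injected under the back skin causes dermal fibrosis. A leukocyte was taken as a cell with at least 200 genes found, at most 20% mitochondrial UMIs, at least 1 UMI of Ptprc and at most 5 UMIs of Col1a1 and Col1a2 together, which leaves out collagen-rich stromal cells. A UMI, or unique molecular identifier, marks 1 captured RNA molecule. Ptprc (ENSMUSG00000026395, chromosome 1, 138062861 to 138175708, GRCm38) encodes CD45, the surface phosphatase carried by nearly all leukocytes. The rule kept 13267 leukocytes out of 20364 SARAWT skin cells that passed the first 2 limits, in a series of 17 libraries with 107534 barcodes. The libraries labelled PBS 1 to 3 held 2350, 276 and 2983 leukocytes, and bleomycin 1 to 3 held 1373, 1331 and 4954. Just inside the rule lay 2206 cells with exactly 1 Ptprc UMI, and just outside it lay 5016 cells with none, of which 37.1% carried the markers of a leukocyte class. Collagen UMIs numbered 1 to 5 in 2726 of the cells kept, and 207 cells with Ptprc were left out for more.

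The mice were 8 weeks old and carried PDGFRb-Cre, in which the promoter of the PDGF receptor beta gene drives Cre recombinase, and Z/EG, a reporter that switches on GFP where Cre has acted. GFP+ cells were sorted from digested back skin, so both groups share the Cre, the reporter and the sort, and the leukocytes are those whose lineage had Cre activity rather than every leukocyte of the skin. Bleomycin was given subcutaneously at 20 mg/kg, 3 times a week for 2 weeks by the sample labels, whereas the study's methods describe daily injections over the same weeks with harvest 1 week later. ZFYVE9 encodes SARA, first described as an adaptor of the TGF-β receptor. The study states that later work, its authors' own included, found TGF-β signalling not to need it. SARATg mice carry in addition a human ZFYVE9 cDNA at Rosa26 behind a stop cassette that Cre removes. Their skin gave 1 PBS library of 2152 leukocytes and 1 bleomycin library of 3618, which entered no fit and are given side by side. The labels do not say how many animals made up a library, so the p-values measure the spread between libraries only.

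Reads of human ZFYVE9 were found in libraries labelled SARAWT, and reads of ZFYVE9 or of mouse Zfyve9 were at high levels in 2 of the controls. Whether the reads of Zfyve9 came from the transgene was not tested. Levels here and below are counts per 1000000 UMIs (CPM), summed over the cells of a library. The endogenous entry Zfyve9 was at 18.1, 4.61 and 617 CPM in the libraries labelled PBS 1 to 3, at 4.99, 5.06 and 6.32 CPM in bleomycin 1 to 3 and at 306 and 264 CPM in the SARATg PBS and bleomycin libraries. A separate entry for human ZFYVE9, held only in the gene lists of the libraries numbered 1 and 2, was at 875 and 203 CPM in the libraries labelled PBS 1 and 2 and at 91.4 and 112 CPM in bleomycin 1 and 2, and it was found in 88.1%, 48.9%, 51.3% and 58.8% of their leukocytes. The library labelled PBS 3 thus lay above both SARATg libraries in the entry they share, and the library labelled PBS 1 had the highest level of the human entry, which the SARATg libraries lack. The library labelled PBS 2 lay between it and the bleomycin libraries. For this reason the called genes were also read against the library labelled PBS 2 alone, where it could enter, and beside the SARATg pair, in which both libraries carry the transgene. The library labelled PBS 2 is also in the fits that called those genes. A gene without overlap between the groups therefore keeps its sign against it by construction. The share of all genes that kept their sign in either reading was not counted. The libraries numbered 3 and both SARATg libraries expressed Y-linked genes and those numbered 1 and 2 expressed Xist, so sex was balanced between the treatments. Leukocyte UMIs summed to 1736808 in the library labelled PBS 2 and to between 16632078 and 47026644 in the other 5, the median leukocyte held 4395 UMIs there and 7406 to 12132 elsewhere, and 48.9% of its leukocytes shared a barcode with another library against 0.503% to 13.4%. It is the shallowest library. Without the cells of shared barcode it held 377968 leukocyte UMIs. Its macrophages then held 157606 UMIs in place of 581658, and its Cd209a dendritic cells 53142 in place of 620451. Values against it alone thus rest mostly on cells whose barcode occurs in another library.

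Bleomycin is an antitumour drug that breaks DNA, and in skin it is followed by infiltration of myeloid cells and T cells and by collagen deposition. Resident dermal macrophages take up debris and carry scavenger receptors, whereas monocytes arrive from blood with high Ly6c2 and mature into macrophages or antigen-presenting cells. Conventional dendritic cells take up antigen in the dermis and carry it to lymph nodes. Dermal γδ T cells, many of them with a Vγ6Vδ4 receptor, make interleukin 17, while type 2 lymphocytes make interleukins 4, 5, 13 and 31 and can turn macrophages towards an alternative state marked by Retnla, Mrc1 and Arg1. Type I interferons bind a receptor found on nearly all cells and switch on a shared set of antiviral genes through a repeated GAAA element in their promoters.

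Each leukocyte was then assigned to 1 of 12 leukocyte classes or 7 other skin classes by the number of its 6 marker genes found. Of all leukocytes, 63.0% fell into a leukocyte class in the library labelled PBS 2 and 83.2% to 86.2% in the other 5, and 0.29% to 1.61% fell into another skin class. Because depth differed, shares were compared after each cell with at least 1000 UMIs had been thinned to 1000. Cd209a dendritic cells made up 19.2%, 18.1% and 11.4% of leukocytes in the libraries labelled PBS 1 to 3 and 9.54%, 10.5% and 7.25% in bleomycin 1 to 3. They were lower in every bleomycin library, at 9.09% ± 1.66 against 16.2% ± 4.21 (SD, n = 3 each), a difference of -7.12 percentage points with an exact permutation p of 0.1, the smallest that 3 against 3 libraries can give, and 0.6 after Benjamini-Hochberg adjustment over the 12 classes. In the SARATg pair their share was 28.9% with PBS and 8.18% with bleomycin. γδ T cells were at 0.417%, 1.39% and 3.77% in the libraries labelled PBS 1 to 3 and at 4.65%, 6.87% and 5.75% in bleomycin 1 to 3. Their bleomycin libraries all lay above the controls, at 5.76% ± 1.11 against 1.86% ± 1.73 (SD, n = 3 each; exact permutation p = 0.1, adjusted 0.6), and the mean of bleomycin libraries exceeded the library labelled PBS 2 alone by 4.37 points. The share in the library labelled PBS 2 rests on 3 of 216 cells. The SARATg libraries held 1.46% and 4.31%. Without thinning the γδ T cell groups overlapped, at 1.28%, 1.45% and 6.91% against 6.19%, 10.5% and 8.36%, while the Cd209a dendritic cells still did not.

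αβ T cells were higher in bleomycin within each of the 3 pairs of equal number, with shares of 1.06%, 1.39% and 2.75% in the libraries labelled PBS 1 to 3 and 1.40%, 4.16% and 5.00% in bleomycin 1 to 3, yet the groups overlapped (exact permutation p = 0.2, adjusted 0.72). Group 2 innate lymphoid cells, a source of type 2 cytokines, were lower in each pair at 1.53%, 1.39% and 2.11% against 0.62%, 1.12% and 1.54%, and these groups overlapped as well (exact permutation p = 0.3). Macrophages were the most frequent class in the libraries numbered 1 and 2 and varied with the library number rather than with treatment, from 41.3%, 30.6% and 10.7% with PBS to 37.6%, 28.9% and 14.7% with bleomycin, so the means of 27.5% ± 15.5 and 27.1% ± 11.5 (SD, n = 3 each) were not separable. Monocytes ranged from 0.185% to 7.78% in the controls and from 6.71% to 7.10% after bleomycin. Unthinned they were at 0.511%, 1.81% and 9.02% against 4.52%, 4.81% and 7.49%, and the difference of the means fell from 3.97 to 1.82 points. Neutrophils reached 21.9% in bleomycin 3 and 9.52% in the library labelled PBS 3 and stayed at or under 4.89% in the libraries numbered 1 and 2. Mast cells, Xcr1 dendritic cells, Ccr7 dendritic cells and natural killer cells overlapped between the groups. B cells made up 0.266% in bleomycin 3 and were at 0 in the other SARAWT libraries at this depth, which allows up to 1.39% in the library labelled PBS 2 and 0.102% to 0.240% in the others. Before thinning 1 cell of bleomycin 1 was also assigned to them, and the SARATg PBS library held 0.189%. Unassigned cells, mixed cells and cells of other skin classes made up the rest. After thinning, unassigned cells ran from 20.2% in bleomycin 1 to 36.7% in the library labelled PBS 3. Other skin classes held at most 1.53% in a SARAWT library. A test of the numbers of cells with edgeR called no class (smallest adjusted p 0.463, and 0.255 with library number as a block). Leukocytes as a whole were, without thinning, 52.4% ± 15.2 of the cells kept with PBS and 66.9% ± 7.65 with bleomycin (SD, n = 3 each; exact permutation p = 0.3). The rule asks for a Ptprc UMI, so this share depends on depth, and the shallow library labelled PBS 2 read 35.3%. After thinning to 1000 UMIs the shares were 29.7% ± 3.08 and 36.3% ± 5.68 (SD, n = 3 each, exact permutation p = 0.2).

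**Figure D1:**
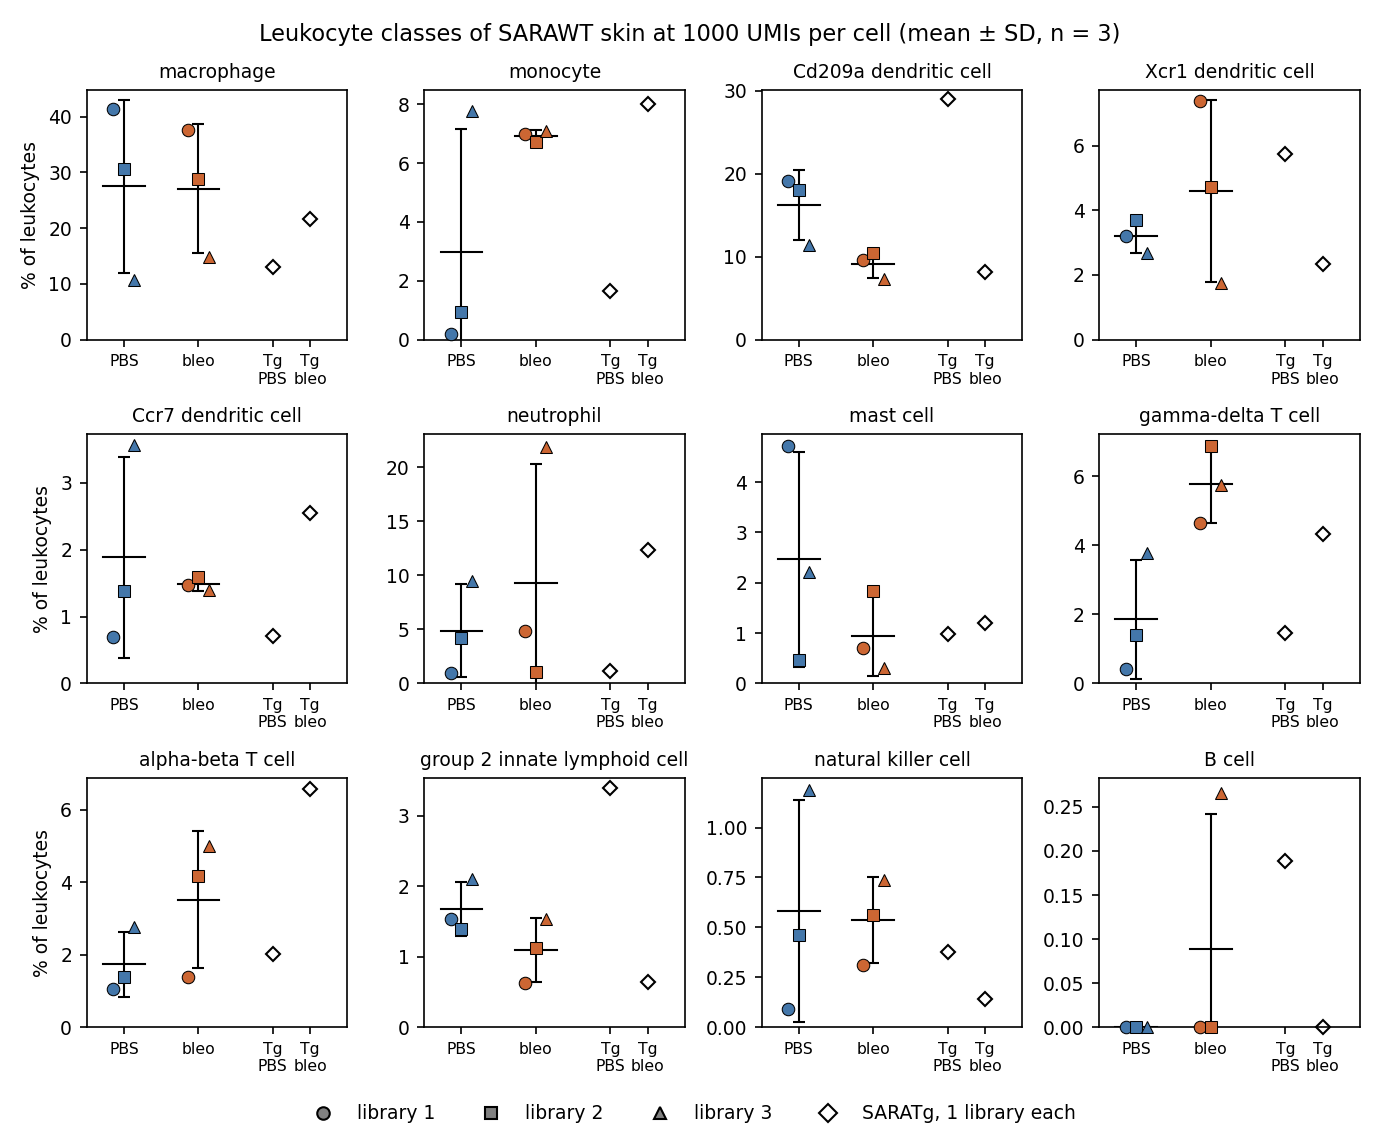
Share of leukocytes in each class after thinning to 1000 UMIs, in percent, by treatment. Circles, squares and triangles are libraries 1, 2 and 3, bars are means ± SD over 3 libraries, and open diamonds are the single SARATg libraries. The Cd209a dendritic cell points lie lower and the γδ T cell points higher with bleomycin, without overlap at this depth (γδ T cells overlap without thinning), while macrophage shares spread from 10.7% to 41.3% among controls alone.

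Gene levels were next compared over all leukocytes of a library, a sum that moves with the mix of classes as well as with the levels inside them. Under edgeR's quasi-likelihood test with Benjamini-Hochberg adjustment no gene of 13107 passed an adjusted p of 0.05, although 1329 lay under 0.05 before adjustment and DESeq2, run as an alternative, called 245 (1.87%). Deviations of libraries of equal number had correlations of 0.185, 0.150 and 0.620. However, the library labelled PBS 1 correlated more with bleomycin 2 (0.291) and that labelled PBS 2 with bleomycin 1 (0.287). With the library number as a block 30 genes passed, 22 higher and 8 lower with bleomycin, or 0.229% of genes tested (0.168% higher and 0.061% lower). The library labelled PBS 2 entered this fit too, which fixes the sign against it for genes without overlap. Against the library labelled PBS 2 alone 29 of the 30 had the same sign, and in the SARATg pair 28 did. The exception was Gjb2, a gap junction gene, which was at 7.88, 0 and 12.7 CPM in the libraries labelled PBS 1 to 3 and 0.481, 0.0575 and 1.06 CPM in bleomycin 1 to 3. Unless stated otherwise, the p-values of the following genes come from this blocked fit. No overlap between the groups was seen in the higher direction for 5.75% of genes tested and in the lower direction for 9.99%, which is the background against which such separations are read.

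Among the 30, Cacna1a, which encodes the pore of a voltage-gated calcium channel (chromosome 8, 84388440 to 84640246), was at 1.496, 1.15 and 1.304 CPM in the libraries labelled PBS 1 to 3 and 10.3, 16.6 and 11.5 CPM in bleomycin 1 to 3. All 3 treated libraries lay far above the controls, and the gene rose with a log2 fold change of 3.15 (adjusted p = 0.0290). Against the library labelled PBS 2 alone the difference was 3.52 on the log2 scale, and the SARATg pair read 1.09 and 14.8 CPM. Spon1, the gene of the matrix protein F-spondin (chromosome 7, 113765998 to 114043370), was at 4.34, 0.576 and 3.25 CPM in the libraries labelled PBS 1 to 3 and 41.9, 25.8 and 26.96 CPM in bleomycin 1 to 3. It also rose (log2 fold change 3.41, adjusted p = 0.0290), with 0.788 and 27.7 CPM in the SARATg libraries. Fcgr4, an activating Fc receptor of monocytes and macrophages, stood at 14.8, 10.9 and 10.3 CPM in the libraries labelled PBS 1 to 3 and 125, 69.2 and 42.3 CPM in bleomycin 1 to 3. Its treated libraries were all well above its controls, and the rise passed at an adjusted p of 0.0407. Axl, a receptor for apoptotic cells coated with Gas6, was at 14.5, 9.79 and 12.1 CPM against 53.8, 41.8 and 36.2 CPM in the same order (adjusted p = 0.0407). Arg1, which degrades arginine, rose from 9.47, 4.03 and 5.74 CPM to 52.5, 9.89 and 26.1 CPM (adjusted p = 0.0483), whereas the SARATg pair read 5.56 and 2.12 CPM. Other genes of myeloid cells that rose were Cd300e, Cd72, Lgals3bp, Cx3cr1, Cfb, Clec4n and Il1a, with adjusted p-values from 0.0407 to 0.0490. Slfn1, AA467197, Rcbtb2, Ddit4, Tmem86a and Il21r also rose, without overlap, at log2 fold changes of 2.35, 2.101, 1.65, 1.63, 1.51 and 1.44. Cfb and Il1a overlapped between the groups, so their rise is seen only within pairs.

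The genes that fell included Gfra2, a co-receptor for the neurotrophic factor neurturin, at 107, 103 and 50.7 CPM in the libraries labelled PBS 1 to 3 and 20.3, 31.7 and 18.5 CPM in bleomycin 1 to 3. Controls and treated libraries did not overlap, and the log2 fold change was -1.79 (adjusted p = 0.0407). Itga1, a collagen-binding integrin, was at 44.7, 50.1 and 70.9 CPM against 16.2, 15.4 and 26.1 CPM in that order (adjusted p = 0.0407). Cldn1, a tight junction protein, fell from 56.05, 66.2 and 49.5 CPM to 12.1, 21.9 and 19.2 CPM, and Dnase1l3, a secreted nuclease of macrophages and dendritic cells that digests DNA of dead cells, fell from 78.5, 73.7 and 32.9 CPM to 20.02, 20.1 and 15.3 CPM (adjusted p = 0.0407 and 0.0483). Hpgd, which inactivates prostaglandins, and Psd3 fell as well. Cd209f had the smallest adjusted p, 0.000816, but its control values ran from 0.956 to 233 CPM and overlapped the treated range of 0.0425 to 4.51 CPM, so its fall is seen only within pairs.

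**Figure D2:**
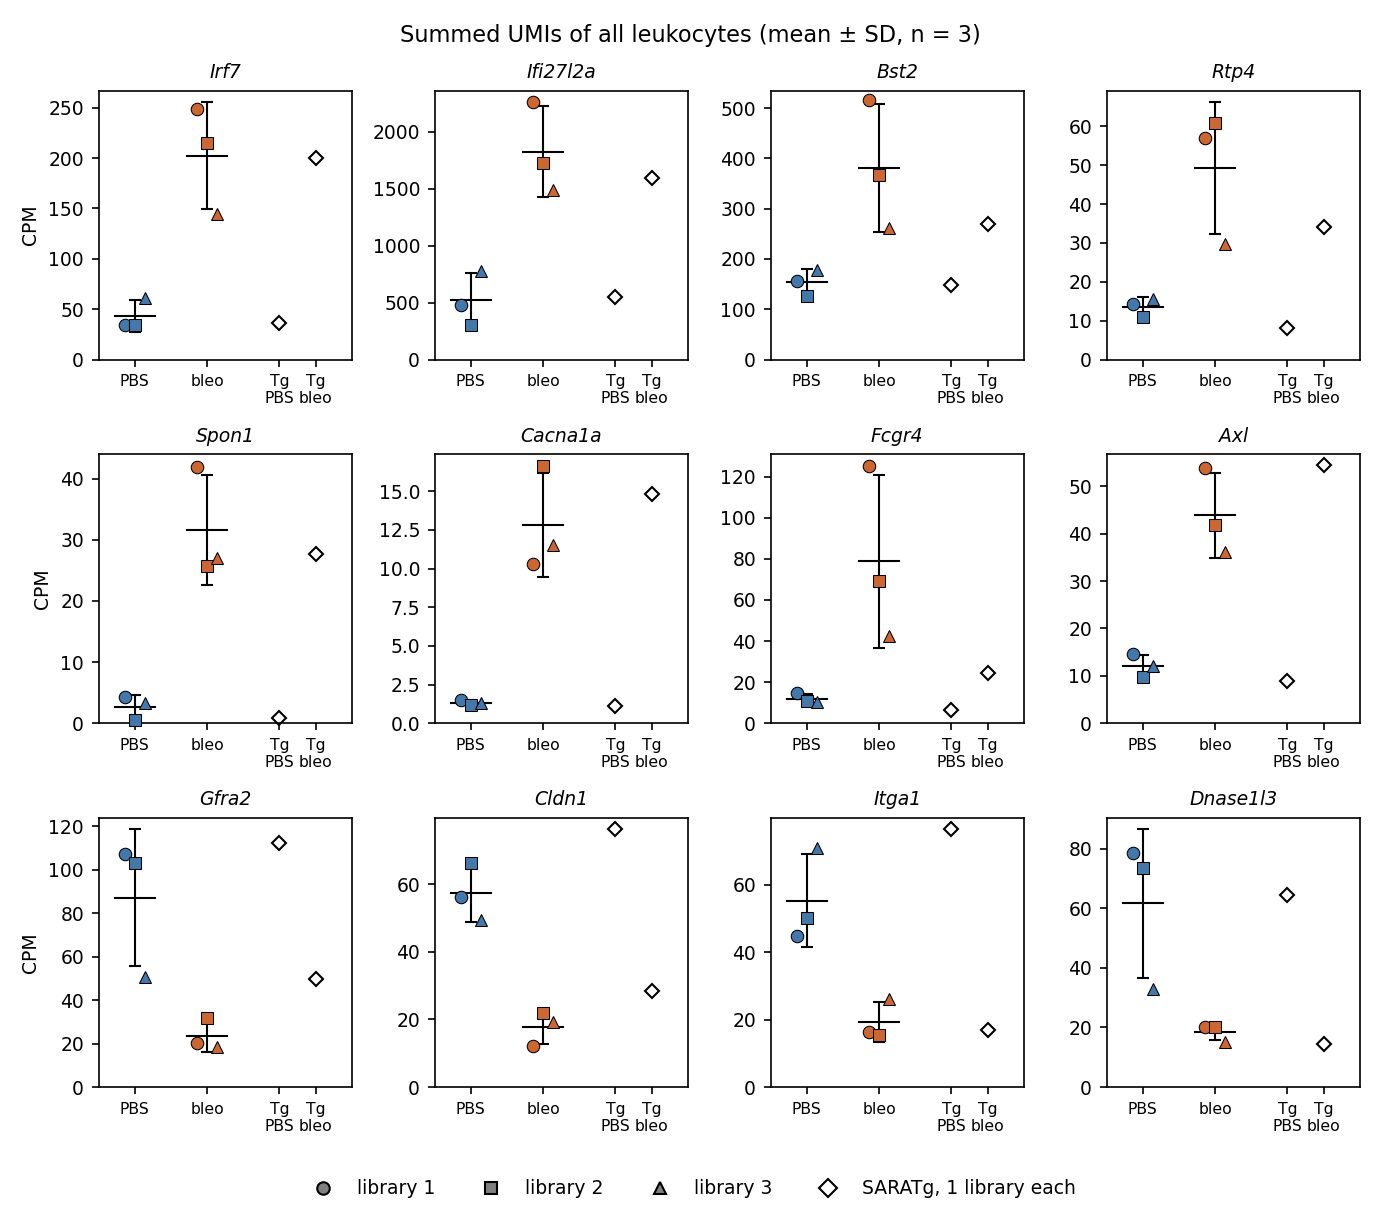
Levels of 12 genes in all leukocytes, in CPM, by treatment. Circles, squares and triangles are libraries 1, 2 and 3, bars are means ± SD over 3 libraries, and open diamonds are the single SARATg libraries. Treated points lie above every control for the genes of the first 2 rows and below every control for Gfra2, Cldn1, Itga1 and Dnase1l3.

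Igkc, the constant region of the antibody kappa light chain, was called as well, yet it came from few cells. Its level was 0.449, 1.15 and 2.43 CPM in the libraries labelled PBS 1 to 3 and 952, 1.898 and 2065 CPM in bleomycin 1 to 3, so bleomycin 2 lay within the control range. Cells with over 1000 Igkc UMIs, a limit set after the values had been seen, numbered 1 in bleomycin 1, 10 in bleomycin 3 and 3 in the SARATg bleomycin library, and none in the other libraries. They held 98.9%, 97.9% and 99.1% of the Igkc UMIs of those libraries and between 88.9% and 98.9% of the Igha UMIs, the heavy chain of IgA antibodies. The next highest cell had 10, 113 and 25 Igkc UMIs. A low Igkc count was also spread through those libraries, with at least 1 UMI in 9.83%, 20.3% and 10.4% of leukocytes against 0.255% to 0.977% in the others.

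Interferon-stimulated genes were mostly higher with bleomycin. Of its 20 members 19 were tested, 18 had a positive log2 fold change, and their median was 1.05 against 0.00 over all genes tested. It was 1.15 without the library labelled PBS 1, 1.15 without that labelled PBS 3 and 1.32 with the libraries numbered 1 and 2 alone. In 9 of the 19 every treated library lay above every control, where 5.75% of all genes did so, and none lay below. Only Oasl2, whose groups overlapped, passed the blocked fit over all genes (adjusted p = 0.0490), and no member passed without the block. Irf7 (chromosome 7, 141262706 to 141266481), the transcription factor that amplifies the interferon response, was at 34.1, 33.97 and 61.4 CPM in the libraries labelled PBS 1 to 3 and 248, 215 and 144 CPM in bleomycin 1 to 3, a log2 difference of 2.27 (SE 0.34) whose adjusted p of 0.205 became 0.0633 with the block. The same difference was 2.63 against the library labelled PBS 2 alone. Bst2, or tetherin, which holds budding viruses at the cell surface, was at 157, 127 and 178 CPM against 516, 366 and 261 CPM in the same order. Ifi27l2a was at 479, 305 and 773 CPM against 2262, 1721 and 1485 CPM, and the SARATg pair read 545 and 1592 CPM. Rtp4, an interferon-induced chaperone of receptors, was at 14.3, 10.9 and 15.6 CPM against 57.1, 61.02 and 29.7 CPM, and the ubiquitin-like Isg15 at 77.9, 136 and 142 CPM against 244, 242 and 176 CPM. In every one of these 5 genes the treated libraries lay above all controls, and against the library labelled PBS 2 alone the log2 differences of Bst2, Ifi27l2a, Rtp4 and Isg15 were 1.64, 2.64, 2.23 and 0.75.

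The promoters of 4 members are shown because interferon acts through them: 250 bases before the start of transcription, from RefSeq on GRCm38.p6, with each match to GAAANNGAAA or its reverse complement TTTCNNTTTC in capitals, read 5′ to 3′ on the gene's strand.
Isg15, chr4:156200819-156201068, strand -: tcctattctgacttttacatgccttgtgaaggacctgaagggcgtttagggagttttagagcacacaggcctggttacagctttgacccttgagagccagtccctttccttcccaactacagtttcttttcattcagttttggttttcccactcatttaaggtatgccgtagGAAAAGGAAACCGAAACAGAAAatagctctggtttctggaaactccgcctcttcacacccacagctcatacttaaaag
Bst2, chr8:71537473-71537722, strand -: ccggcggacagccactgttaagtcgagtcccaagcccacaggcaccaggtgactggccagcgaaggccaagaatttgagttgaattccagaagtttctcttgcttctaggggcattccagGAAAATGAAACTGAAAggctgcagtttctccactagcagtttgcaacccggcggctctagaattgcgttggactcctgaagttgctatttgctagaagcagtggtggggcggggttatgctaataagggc
Ifit3, chr19:34583279-34583528, strand +: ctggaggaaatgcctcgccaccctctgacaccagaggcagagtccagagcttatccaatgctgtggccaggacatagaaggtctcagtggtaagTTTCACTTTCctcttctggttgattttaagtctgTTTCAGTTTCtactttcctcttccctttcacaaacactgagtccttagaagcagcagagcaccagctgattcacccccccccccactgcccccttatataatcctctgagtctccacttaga
Irf7, chr7:141266425-141266674, strand -: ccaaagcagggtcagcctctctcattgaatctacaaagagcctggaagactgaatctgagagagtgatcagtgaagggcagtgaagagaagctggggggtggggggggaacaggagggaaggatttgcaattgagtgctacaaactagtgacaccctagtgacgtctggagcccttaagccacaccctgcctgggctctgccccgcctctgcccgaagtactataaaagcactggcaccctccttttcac
Isg15 held 3 overlapping matches at 78, 72 and 66 bases before the start, Bst2 held 2 overlapping matches at 130 and 124, Ifit3 held 2 at 156 and 122, and Irf7 held none of these letters in this window. RefSeq and GENCODE differ in the start of Irf7. Its window, from 141266425, lies partly inside the gene as GENCODE places it (up to 141266481). A promoter entry existed for 13 of the 20 listed genes and 8 of the 13 held a match (61.5%), as did 978 of all 32851 promoters (2.98%). A match is a description of the letters and not of binding.

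The IL-17 list, receptors and cytokines of cells that make interleukin 17, had 13 members tested, 11 of them positive with a median of 1.09. Upwards 3 separated without overlap, where 5.75% of all genes did. Il17a itself (chromosome 1, 20730905 to 20734496) was at 39.4, 27.6 and 41.2 CPM in the libraries labelled PBS 1 to 3 and 74.3, 77.3 and 86.7 CPM in bleomycin 1 to 3, so each treated library was above each control (log2 difference 1.18, SE 0.18, blocked adjusted p = 0.0507). Trdv4, the variable segment of the Vδ4 receptor chain, was at 2.14, 2.88 and 12.1 CPM against 18.8, 32.7 and 42.4 CPM in the same order (blocked adjusted p = 0.0507). Neither passed the threshold. Against the library labelled PBS 2 alone they differed by 1.57 and 3.49 on the log2 scale, and their higher values in the sum stand beside the higher γδ T cell share given above.

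Genes of the type 2 axis did not pass over all leukocytes. Of 18 listed members 13 were tested and 4 had a positive difference, with a median of -0.55 that became 0.04 without the library labelled PBS 3. Il13 was at 14.8, 1.15 and 11.8 CPM in the libraries labelled PBS 1 to 3 and 6.73, 5.75 and 5.27 CPM in bleomycin 1 to 3, overlapping. Il4 was at 11.6, 11.5 and 1.83 CPM against 1.02, 3.85 and 0.361 CPM in the same order, and Gata3, the factor that directs type 2 lymphocytes, at 42.2, 21.9 and 78.4 CPM against 17.3, 22.5 and 57.2 CPM, both overlapping too. Il31 had too few counts to be tested. Retnla, which macrophages make in response to interleukins 4 and 13, was at 2328, 1581 and 918 CPM in the libraries labelled PBS 1 to 3 and 526, 496 and 728 CPM in bleomycin 1 to 3. The treated libraries were all lower than the controls, with a log2 difference of -1.38 and a blocked adjusted p of 0.125, and the SARATg pair read 1953 and 1036 CPM. Il6, an inflammatory and profibrotic cytokine, was also lower in every treated library, at 69.96, 72.5 and 103 CPM against 22.5, 48.4 and 39.4 CPM, and by -0.93 on the log2 scale against the library labelled PBS 2 alone. Tgfb1, the central profibrotic ligand, was at 267, 267 and 244 CPM against 227, 249 and 297 CPM, a log2 difference of 0.05 (SE 0.16). Blmh, the hydrolase that inactivates bleomycin, was at 37.5, 31.7 and 33.7 CPM against 25.01, 27.5 and 29.9 CPM and lower in every treated library, without passing. Targets of p53, which respond to DNA damage, had 19 members tested and 12 positive with a median of 0.19, and none separated upwards. Genes of skin cells outside the leukocytes, such as keratins and collagens, had 3 of 18 members positive and a median of -1.17, none of them passing, with summed levels of 375, 143 and 415 CPM in the libraries labelled PBS 1 to 3 and 143, 218 and 267 CPM in bleomycin 1 to 3, overlapping. In 5 of the 18 every treated library lay below every control, where 9.99% of all genes did. Their part in the results was not tested.

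Within macrophages more genes passed. A sum inside 1 class is less open to the mix of classes, although free RNA of other cells, which was not estimated, and doublets, which were kept in, remain in it. The gate gave 944, 72 and 363 macrophages in the libraries labelled PBS 1 to 3 and 546, 418 and 835 in bleomycin 1 to 3. edgeR without a block called 20 of 10830 genes (0.185%), 14 higher (0.129%) and 6 lower (0.0554%), and with the block 393 (3.63%), 218 higher (2.01%) and 175 lower (1.62%). DESeq2 called 301 (2.78%). Every treated library lay above every control for 7.11% of genes and below for 11.2%. Of the 20 genes 19 had a value against the library labelled PBS 2 alone and all 19 kept their sign, and of the 393 this held for 386 of 389, the exceptions being Gja1, Lgals7 and Tpm3-rs7. These counts were fixed in part, since that library entered the fits. In the SARATg pair 18 of the 20 and 366 of the 393 had the same sign. The adjusted p-values that follow are from the fit without a block unless said. The count depends on which library is left out: none passed without the library labelled PBS 1, without that labelled PBS 2, without bleomycin 1 or without bleomycin 2, 41 passed without bleomycin 3, 415 passed without the library labelled PBS 3, and 1 passed against the library labelled PBS 2 alone, where the lone control is assumed to vary like the treated libraries.

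Plac8 and genes of the Ly6 family rose in the macrophage gate. Ly6c2 (chromosome 15, 75108158 to 75111970), a monocyte surface protein, was at 4.35, 3.44 and 17.9 CPM in the libraries labelled PBS 1 to 3 and 336, 333 and 197 CPM in bleomycin 1 to 3, with a log2 fold change of 4.95 (SE 0.603, adjusted p = 0.0323). The treated libraries all stood an order of magnitude above the controls. Plac8 was at 66.7, 32.7 and 36.7 CPM in the libraries labelled PBS 1 to 3 and 608, 502 and 334 CPM in bleomycin 1 to 3 (adjusted p = 0.0296). Both genes are markers of the monocyte gate, so a macrophage could carry them only while it had more macrophage markers, and Ly6c2 shares sequence with its near-identical neighbour Ly6c1. Ly6i and Ly6a, of the same family, rose too, Ly6a from 92.4, 60.2 and 96.4 CPM to 954, 834 and 349 CPM (adjusted p = 0.0323). In the SARATg pair Ly6c2 read 25.4 and 141 CPM and Plac8 69.5 and 162 CPM. Against the library labelled PBS 2 alone the log2 differences of these 2 genes were 6.48 and 3.98.

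Axl, Ctss, Lgals3bp and Fcgr4 rose too. Axl was at 28.02, 27.5 and 33.3 CPM in the libraries labelled PBS 1 to 3 and 104, 94.2 and 97.7 CPM in bleomycin 1 to 3, a narrow range in each group (log2 fold change 1.797, SE 0.197, adjusted p = 0.0296). Ctss, a lysosomal protease that trims the class II invariant chain, was at 1318, 1224 and 1413 CPM against 3682, 3193 and 2972 CPM in the same order (adjusted p = 0.0374). Lgals3bp, a secreted glycoprotein that binds galectins, rose with a log2 fold change of 1.77. Fcgr4 was at 32.6, 20.6 and 30.8 CPM against 259, 185 and 115 CPM (adjusted p = 0.0311), and it was the complement and Fc receptor gene that passed. Of the 16 genes of that list 12 were positive, with a median of 0.41, and 5 passed with the block, C3, Fcgr1 and Fcer1g among them at adjusted p-values of 0.0127, 0.0191 and 0.0295. Of all genes 3.63% passed with the block. Cd72, a receptor that carries inhibitory motifs, and Gpat3, which makes glycerolipids, rose as well, and Gpat3 read 12.1 and 3.998 CPM in the SARATg pair, the opposite order. Cacna1a was at 1.15, 0 and 0.453 CPM against 14.6, 26.6 and 21.4 CPM and Spon1 at 9.72, 0 and 5.43 CPM against 60.1, 52.7 and 55.3 CPM, so the rise of both over all leukocytes is also found inside this class. Irf7 was at 48.9, 56.7 and 86.9 CPM in the libraries labelled PBS 1 to 3 and 362, 389 and 245 CPM in bleomycin 1 to 3 (log2 fold change 2.42, SE 0.31, adjusted p = 0.0323). With the block 9 of the 19 interferon-stimulated genes tested passed, all upwards, where 2.01% of all genes passed upwards.

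The 6 genes that fell were Gfra2, Hbegf, Il1rl1, Sema6d, Nedd4 and Sh3d19. Gfra2 was at 112, 92.8 and 48.7 CPM in the libraries labelled PBS 1 to 3 and 8.75, 10.99 and 12.97 CPM in bleomycin 1 to 3 (log2 fold change -2.84, SE 0.32, adjusted p = 0.0296). Hbegf, a growth factor of the EGF family that acts on keratinocytes and fibroblasts, was at 307, 266 and 178 CPM in the libraries labelled PBS 1 to 3 and 66.1, 77.8 and 69.4 CPM in bleomycin 1 to 3 (adjusted p = 0.0323). Treated values were about the same in all 3 libraries for both genes and lay well under the lowest control. Il1rl1, the receptor of the alarmin interleukin 33, fell by 1.599 on the log2 scale (adjusted p = 0.0478). Sema6d is a semaphorin and Nedd4 a ubiquitin ligase. With the block the largest changes also included Saa3, an acute phase protein, at 0.384, 0 and 1.81 CPM against 32.6, 24.2 and 314 CPM, and Cd300e, at 0.128, 0 and 0.906 CPM against 20.7, 8.57 and 8.12 CPM, both higher in every treated library. Cd209g, P3h2, Siglech and Hrh1 fell with blocked log2 fold changes of -6.08, -4.27, -4.21 and -3.44. Genes of skin cells outside the leukocytes had 4 of 11 members positive in macrophages with a median of -0.88. Below every control lay 3 of the 11, where 11.2% of all genes did, and Dpt, a matrix protein of fibroblasts, passed with the block. Their part in the falls was not tested.

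**Figure D3:**
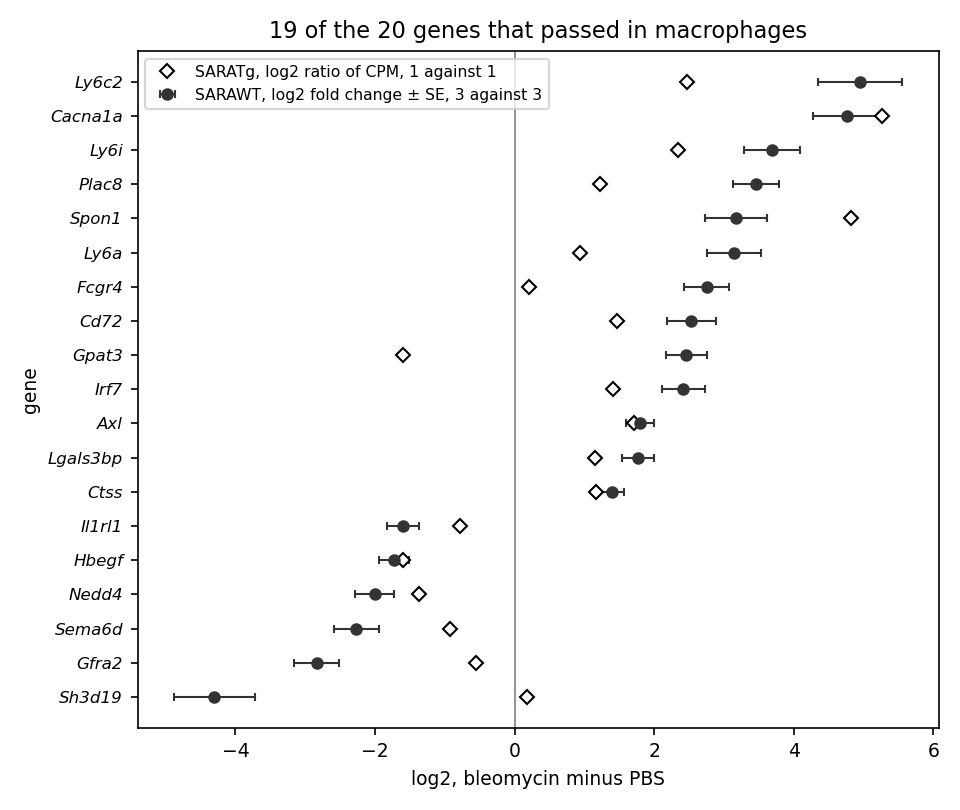
Log2 fold change of bleomycin over PBS in macrophages for 19 of the 20 genes that passed edgeR without a block, with bars of 1 SE, beside the log2 ratio of the single SARATg libraries as open diamonds. The filled points run from 4.95 for Ly6c2 to -4.30 for Sh3d19, and the SARATg ratio has the opposite sign for Gpat3 and Sh3d19.

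Alternative activation genes split in macrophages. Of 16 members tested 5 were positive and the median was -1.05. With the block 2 rose and 7 fell, where 2.01% of all genes rose and 1.62% fell. Arg1 rose from 0.512, 0 and 5.43 CPM in the libraries labelled PBS 1 to 3 to 122, 30.9 and 83.8 CPM in bleomycin 1 to 3 (blocked adjusted p = 0.00501), and the SARATg pair read 0.952 and 4.998 CPM, the same order at low levels. Retnla fell instead, from 5547, 3994 and 3673 CPM to 1142, 1277 and 2323 CPM (blocked adjusted p = 0.0258), and in the SARATg pair it read 11097 and 2447 CPM. The mannose receptor Mrc1, the scavenger receptor Cd163, the lectin Mgl2 and the eosinophil attractant Ccl24 fell with blocked log2 fold changes of -0.97, -2.52, -1.36 and -3.57. Mrc1 is itself a marker of the gate and Mgl2 one of the dendritic cell gate, so their values describe the cells the gate left in. None of these 6 passed without the block.

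Profibrotic ligands did not move together in macrophages, with 4 rising and 5 falling under the block among 16 tested. Of all genes 2.01% rose and 1.62% fell under the block. Vegfa, which acts on vessels, rose from 25.6, 61.9 and 61.1 CPM to 247, 111 and 272 CPM (blocked adjusted p = 0.0193). Tgfb3 was at 1.28, 1.72 and 0.453 CPM against 15.1, 6.52 and 7.93 CPM and osteopontin, or Spp1, rose at a blocked adjusted p of 0.00860. Il6 fell from 60.8, 77.4 and 127 CPM to 16.4, 36.9 and 40.96 CPM (blocked adjusted p = 0.00896), and Igf1 and Gas6, the ligand of Axl, fell as well at 0.0363 and 0.0363, though both overlapped between the groups and fell only within pairs. Tgfb1 differed by 0.12 on the log2 scale (SE 0.17). Of the lipid-associated genes 15 of 18 were positive, with a median of 0.58, but the fatty acid translocase Cd36 fell from 333, 407 and 169 CPM to 49.4, 48.2 and 72.03 CPM (blocked adjusted p = 0.00952, 0.0520 without it). Among stress genes that fell, the metallothionein Mt2 went from 231, 85.96 and 109 CPM to 37.6, 19.9 and 41.98 CPM and the haem-degrading Hmox1 by 1.599 on the log2 scale, with blocked adjusted p-values of 0.00625 and 0.0328. Immediate early and heat shock genes, which respond to tissue digestion, had 4 of 18 members positive, and 4 fell with the block, Egr1 and Hspa1a among them, the latter with overlapping groups. Chemokines had 4 of 15 positive, and 4 fell with the block, Ccl7 and Pf4 among them, Pf4 being a marker of the gate.

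Monocytes were gated in too few numbers in the library labelled PBS 2 (5 cells) to enter, as were neutrophils (9), γδ T cells (4) and αβ T cells (3). In these 4 classes both controls are the libraries labelled PBS 1 and PBS 3, so the high ZFYVE9 or Zfyve9 reads and the treatment cannot be told apart, and the SARATg pair is given for comparison. Of the genes that passed with the block there, 58 of 83 in monocytes, 13 of 22 in neutrophils, 89 of 129 in γδ T cells and 16 of 18 in αβ T cells had the same sign in the SARATg pair. Their blocked fits rest on 2 complete pairs with 1 residual degree of freedom.

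In monocytes (12 and 269 cells in the libraries labelled PBS 1 and 3 and 62, 64 and 371 in bleomycin 1 to 3) no gene of 6674 passed without the block (507 lay under 0.05 before adjustment, and DESeq2 called 36 or 0.539%), and 83 passed with it (1.24%, with 0.569% higher and 0.674% lower). Interferon-stimulated genes had 17 of 18 members positive with a median of 1.31, and 12 lay above both controls without overlap, as 13.5% of all genes did. Irf7 was at 64.8 and 171 CPM in the libraries labelled PBS 1 and 3 and 421, 568 and 296 CPM in bleomycin 1 to 3 (blocked adjusted p = 0.0390), but the SARATg PBS and bleomycin libraries were at 551 and 517 CPM, as high as the treated SARAWT libraries in both arms. Ifit3, which shares reads with its copy Ifit3b, was at 0 and 2.74 CPM against 31.6, 53.05 and 17.7 CPM and at 85.1 and 25.1 CPM in the SARATg pair. Class II genes had 9 of 9 members positive, with a median of 1.21, and H2-Ab1 was at 4026 and 1635 CPM against 6047, 8196 and 5224 CPM (blocked adjusted p = 0.0379) and 3006 and 4734 CPM in the SARATg pair. Apoe, a lipid carrier made by maturing macrophages, was at 213 and 569 CPM against 2190.4, 2316 and 3252 CPM and 463 and 1947 CPM, the same order in the libraries of both labels. Complement C1qb, a marker of the macrophage gate, was at 0 and 34.4 CPM against 309, 213 and 105 CPM and at 17.02 and 87.3 CPM in the SARATg pair. Of 13 inflammatory mediators tested, Il1b, Il6, Ptgs2 and Tnf fell with the block and none rose. Il1b was at 9717 and 10893 CPM in the libraries labelled PBS 1 and 3 and 2002, 3240.4 and 4675 CPM in bleomycin 1 to 3 (log2 fold change -1.58, blocked adjusted p = 0.000243), and the SARATg pair read 5545 and 4234 CPM. Il6 was at 888 and 258 CPM against 2.87, 56.4 and 67.4 CPM, the prostaglandin synthase Ptgs2 at 2277 and 3424 CPM against 480.1, 775 and 1654 CPM and Tnf at 648 and 563 CPM against 155, 319 and 302 CPM (blocked adjusted p = 0.0455 for Tnf). Il10, an anti-inflammatory cytokine of another list, fell too, at 602 and 178 CPM against 0, 21.4 and 124 CPM. For these 5 genes the SARATg ratio had the same sign as the SARAWT difference. Other genes of large change with the block had few or no counts in the controls, Cd72 at 0 and 2.13 CPM against 74.7, 76.7 and 20.8 CPM, complement C4b at 0 and 3.66 CPM against 58.9, 41.8 and 46.4 CPM and Gdf3 at 0 and 0 CPM against 21.6, 15.8 and 5.58 CPM. Zeros in the library labelled PBS 1 rest on 108055 monocyte UMIs, where 3 UMIs (Ly6i) read 27.8 CPM. That level is above every treated Gdf3 value and the lowest treated values of Cd72 and Ifit3. The library labelled PBS 3 held 3280462 monocyte UMIs. Pianp and Dppa3 rose as well, Ly6a was at 37.02 and 56.7 CPM against 709, 912 and 256 CPM, and Ednrb and Mid1ip1 fell at log2 fold changes of -2.73 and -2.59.

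Cd209a dendritic cells were numerous enough in all 6 libraries (672, 60 and 731 against 216, 242 and 670 cells). Without the block no gene of 10282 passed (1321 lay under 0.05 before adjustment, and DESeq2 called 161 or 1.57%), and with it 119 did (1.16%, with 0.749% higher and 0.408% lower). Against the library labelled PBS 2 alone 117 of the 118 genes with a value had the same sign, Tpm3-rs7 being the exception, and 116 of the 119 did in the SARATg pair. The first of these counts was fixed in part, since the library labelled PBS 2 entered the fit. Spon1 was at 0.539, 0 and 1.06 CPM in the libraries labelled PBS 1 to 3 and 25.2, 10.2 and 21.1 CPM in bleomycin 1 to 3, rising from near nothing in each treated library (blocked adjusted p = 0.00523), and Cacna1a was at 0.808, 0 and 0.813 CPM against 9.32, 13.8 and 11.1 CPM in the same order (blocked adjusted p = 0.00837). The SARATg pair read 0.200 and 23.1 CPM for Spon1 and 1.001 and 14.9 CPM for Cacna1a. Klrk1, the activating receptor NKG2D, was at 14.7, 16.1 and 6.91 CPM against 72.4, 59.6 and 49.3 CPM and Asgr2, a lectin that clears glycoproteins, at 6.06, 9.67 and 6.67 CPM against 81.7, 45.03 and 40.03 CPM (blocked adjusted p = 0.00523 and 0.00617). Interferon-stimulated genes had 16 of 18 positive with a median of 1.23, 12 above all controls where 10.3% of all genes were (9.66% lay below), and Ifi27l2a, Bst2 and Oasl2 passed with the block. Bst2 was at 154, 82.2 and 198 CPM in the libraries labelled PBS 1 to 3 and 381, 279 and 412 CPM in bleomycin 1 to 3 and 155 and 329 CPM in the SARATg pair. Cd163 fell from 225, 316 and 190.1 CPM to 41.1, 79.9 and 69.3 CPM and Itga1 from 61.00, 80.6 and 46.8 CPM to 9.596, 12.1 and 19.97 CPM (blocked adjusted p = 0.00617 and 0.0158). Clec10a, a marker of the gate whose reads may be split with its relative Mgl2, was at 157, 131 and 148 CPM against 431, 329.8 and 288 CPM. Il21r, AA467197 and Ly6a rose without overlap, at blocked log2 fold changes of 3.896, 3.68 and 3.66, and Mamdc2, Msrb3, Nedd4 and the haemoglobin gene Hbb-bs fell at -3.398, -1.999, -1.93 and -4.69. In bleomycin 2, however, Il21r (3.75 CPM) and AA467197 (4.59 CPM) lay close to the library labelled PBS 3, at 3.58 CPM for each gene. Hbb-bs belongs to the list of genes of cells outside the leukocytes, of which 5 of 9 lay below every control with a median of -1.06, and the part of such cells in the falls was not tested. The gate's own Cd209a, at 904, 972 and 815 CPM against 847, 854 and 945 CPM, and H2-Ab1, with a log2 difference of -0.26, overlapped.

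Interleukin 17 was read in both T cell classes. γδ T cells (30 and 206 against 85, 140 and 414 cells) already expressed it in controls: Il17a was at 2088 and 609 CPM in the libraries labelled PBS 1 and 3 and 1768, 799 and 1039 CPM in bleomycin 1 to 3, overlapping, with a log2 difference of -0.14 (SE 0.49), and Il17f was at 2373 and 780.4 CPM against 831, 770.4 and 888 CPM. The Il17a difference turned to 1.02 without the library labelled PBS 1. The SARATg pair read 1616 and 1543 CPM for Il17a and 1358 and 1137 CPM for Il17f. No gene of 7752 passed without the block (369 lay under 0.05 before adjustment, and DESeq2 called 31 or 0.4%), and 129 passed with it (1.66%, with 1.16% higher and 0.503% lower). No overlap was seen for 9.58% of genes upwards and 11.2% downwards. Areg, the EGF family ligand amphiregulin that takes part in tissue repair, was at 206 and 326 CPM in the libraries labelled PBS 1 and 3 and 829, 533 and 625 CPM in bleomycin 1 to 3 (blocked adjusted p = 1.61e-05), whereas the SARATg pair went from 650.3 to 277 CPM. The receptor chain Trdc, used by the gate, was at 973 and 1592 CPM against 2361, 2369.6 and 2413 CPM and at 2035 and 2199.8 CPM in the SARATg pair. Of the 10 class II genes 7 passed the filter on low counts and rose with the block, H2-Ab1 from 59.9 and 56.7 CPM to 688, 447 and 314 CPM and Cd74 from 183 and 127 CPM to 1613, 1269 and 643 CPM. Genes of myeloid cells moved with them, Csf1r at 0 and 0 CPM against 17.6, 16.3 and 8.46 CPM and Ms4a7 at 0 and 0 CPM against 5.29, 17.04 and 11.3 CPM, and their part in the class II values was not tested. Pld4, Cd300c2 and Plbd1, further genes of myeloid cells, were likewise at or near 0 in both controls and rose with the block. Zeros in the library labelled PBS 1 rest on 267214 γδ T cell UMIs, where 5 UMIs (Zfyve9) read 18.7 CPM, so they set a loose limit on these low genes. Ctse, Tnfsf11, the ligand RANKL, and Sema6d fell, Tnfsf11 at 33.7 and 208 CPM against 3.53, 0 and 10.9 CPM. Zfyve9, in which the part of transgene reads was not tested, fell too, at 18.7 and 838 CPM against 0, 1.48 and 0.352 CPM and 654 and 475 CPM in the SARATg pair. In the SARATg pair H2-Ab1 read 76.1 and 114 CPM and Cd74 384 and 237 CPM.

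In αβ T cells (32 and 161 against 25, 68 and 358 cells) Il17a was nearly absent from controls. It was at 10.6 and 13.2 CPM in the libraries labelled PBS 1 and 3 and 474, 281 and 151 CPM in bleomycin 1 to 3, with no overlap between the groups (log2 fold change 4.63, SE 0.62, adjusted p = 0.0589, and 0.0159 with the block). The SARATg PBS library read 20.9 CPM and the SARATg bleomycin library 781 CPM, the same order where both libraries carry the transgene. Cells of this gate also held markers of γδ T cells (138 CPM summed) and of group 2 innate lymphoid cells (669 CPM), beside 2581 CPM of its own. The γδ gate in turn held 1057 CPM of αβ markers. The part of such other cells in the αβ values, Il17a, Il13 and Gata3 included, was not tested. Il17f was at 128 and 30.5 CPM against 207, 758 and 195 CPM and Il22, a cytokine that acts on epithelium, at 24.8 and 12.4 CPM against 73.7, 251 and 39.7 CPM, each above both controls but with a wide spread (adjusted p = 0.552 and 0.500). In the SARATg pair Il17f read 14.7 and 745 CPM and Il22 0 and 268 CPM. Ctla4, a checkpoint receptor of activated and regulatory T cells, was at 81.5 and 147 CPM against 433, 399 and 265 CPM, and the CD8 chain Cd8b1 at 24.8 and 14.8 CPM against 64.5, 89.1 and 128 CPM, also without overlap. Neither gene passed edgeR, at adjusted p-values of 0.252 and 0.0858 without the block and 0.365 and 0.0776 with it. The SARATg libraries read 85.9 and 347 CPM for Ctla4 and 14.7 and 171 CPM for Cd8b1. Csf2 (chromosome 11, 54247271 to 54249667), the gene of the growth factor GM-CSF, went the other way at 553 and 317 CPM in the libraries labelled PBS 1 and 3 and 0, 11.7 and 11.6 CPM in bleomycin 1 to 3. It was 1 of 2 genes of 6475 that passed without the block (0.0309%; 372 lay under 0.05 before adjustment and DESeq2 called 31 or 0.479%), with a log2 fold change of -5.33 (SE 0.47, adjusted p = 0.00545), and the SARATg pair read 155 and 24.5 CPM. Ifng, the cytokine of type 1 T cells, was lower in every treated library at 627 and 110.5 CPM against 32.2, 45.3 and 26.7 CPM (adjusted p = 0.143), and the SARATg pair read 83.8 and 5.14 CPM. Il13 was at 120.5 and 81.6 CPM against 0, 73.1 and 3.61 CPM and passed as lower with the block (log2 fold change -4.70, adjusted p = 0.0133). Without the block its adjusted p was 0.933. Gata3 was at 365 and 529 CPM against 262, 136 and 219 CPM, so neither type 2 gene was higher. Il13 read 337 and 16.99 CPM and Gata3 875 and 214 CPM in the SARATg pair. The other gene that passed, Tpm3-rs7, a copy of the tropomyosin gene Tpm3, was at 138 and 135 CPM against 4.604, 1.46 and 12.6 CPM, and in monocytes, neutrophils and γδ T cells as well it was higher in the libraries labelled PBS 1 and PBS 3 and in the SARATg bleomycin library than in the others. No overlap was seen for 8.8% of genes upwards and 14.4% downwards. With the block 18 genes passed (0.278%, with 0.185% higher and 0.0927% lower), the muscle genes Acta1, Mylpf and Tnnt3 among them, with Acta1 at 0 and 13.2 CPM against 806, 24.8 and 443 CPM and at 10.5 and 341 CPM in the SARATg pair. The granzyme Gzmk rose, at 0 and 0.824 CPM against 13.8, 26.3 and 56.7 CPM, and the granzyme Gzmc and the immediate early gene Fosb fell, at log2 fold changes of -2.25 and -2.12 with the block.

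**Figure D4:**
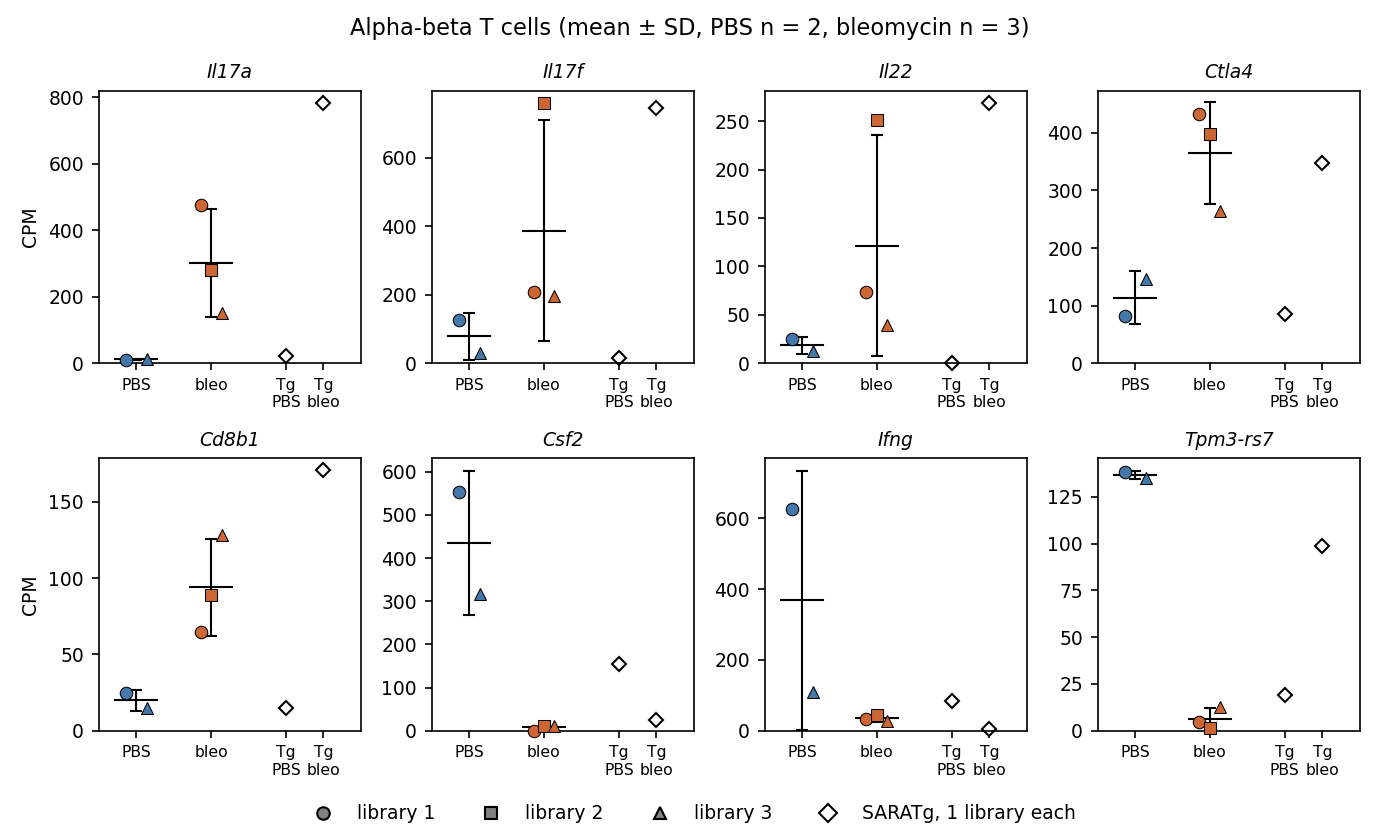
Levels of 8 genes in αβ T cells, in CPM, by treatment. Circles, squares and triangles are libraries 1, 2 and 3, the library labelled PBS 2 is left out for having 3 cells, bars are means ± SD, and open diamonds are the single SARATg libraries. Il17a lies above the controls in every treated library and in the SARATg bleomycin library, and Csf2 and Ifng lie below. The part of other cell types in the gate was not tested.

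Neutrophils (25 and 288 against 68, 14 and 1154 cells) gave no call among 2363 genes without the block (78 lay under 0.05 before adjustment, and DESeq2 called 3 or 0.127%) and 22 with it (0.931%, with 0.55% higher and 0.381% lower). Inflammatory mediators were positive in 12 of 12 members tested, with a median of 0.48, and 5 lay above both controls where 10.7% of all genes did (9.27% lay below). Tnf was at 332 and 314 CPM in the libraries labelled PBS 1 and 3 and 693, 777 and 1191 CPM in bleomycin 1 to 3 (blocked adjusted p = 0.0140), the adhesion receptor Icam1 at 481 and 326 CPM against 1093, 1311 and 1079 CPM and the neutrophil attractant Cxcl1 at 149 and 855 CPM against 2949, 2137 and 2429.8 CPM. The granule proteins S100a8 and S100a9, markers of the gate, were lower in each treated library, S100a8 at 38932 and 31356 CPM against 16080.2, 18479 and 10390.1 CPM. Il1b overlapped at 9945 and 11439.6 CPM against 18574, 8426 and 9227 CPM. Retnla, a gene of macrophages and dendritic cells, had the largest change with the block among the genes named, at 1029 and 162 CPM against 10.1, 0 and 11.1 CPM (blocked adjusted p = 1.45e-17) and 36.2 and 25.9 CPM in the SARATg pair. Its level over all leukocytes was lower with bleomycin as well, and the part of other cells in the neutrophil value was not tested. Il1a, Apoe, Slc23a2 and Il23a rose with the block, at 2.11, 2.01, 1.92 and 1.72 on the log2 scale, and Tpm3-rs7, Setd5, Klra17 and Wfdc21 fell. In the SARATg pair Tnf read 337 and 279 CPM and Icam1 470.0 and 433 CPM, lower with bleomycin, whereas Cxcl1 read 36.2 and 298 CPM, the same order as in SARAWT.

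Read across classes, the interferon-stimulated list had a positive median in each fit: 1.07 in macrophages, 1.31 in monocytes, 1.23 in Cd209a dendritic cells, 0.78 in neutrophils, 1.08 in γδ T cells and 0.93 in αβ T cells. All medians over the genes tested in the same fits were near 0, and the classes were not tested against each other. The classes come from the same libraries, so they are not independent of one another.

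**Figure D5:**
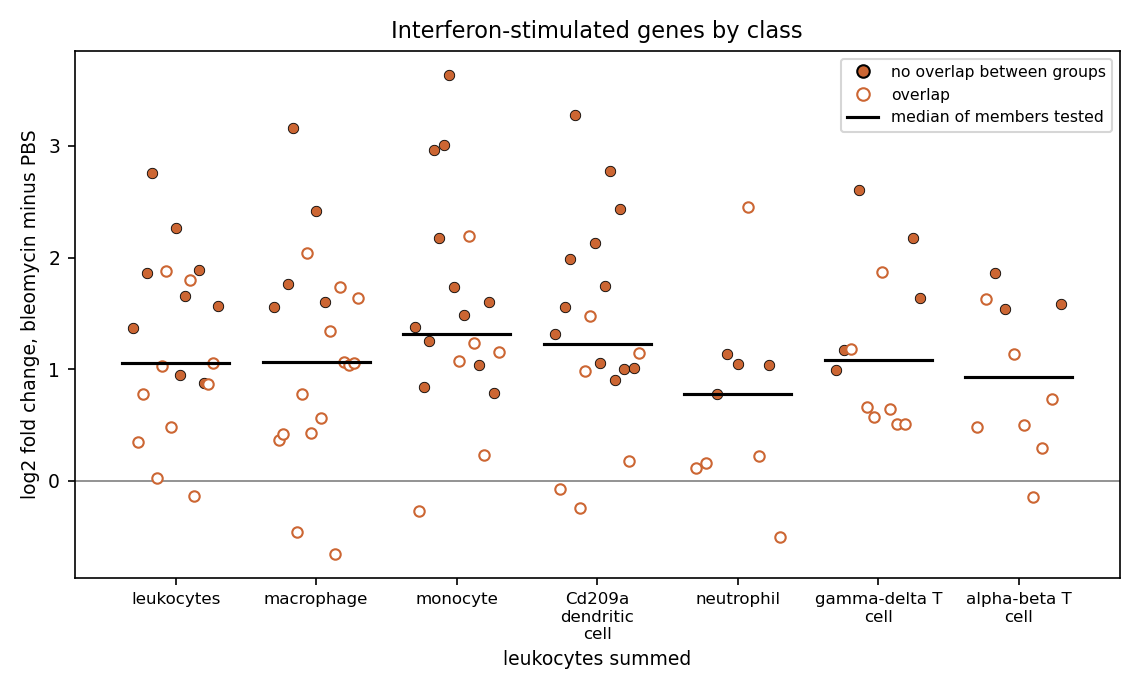
Log2 fold change of bleomycin over PBS for each interferon-stimulated gene tested, by class. Each point is 1 gene, filled where every treated library lay above every control, and the bar is the median, which is above 0 in every class shown.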

How the data were processed

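Skin cells were profiled by droplet 3′ single-cell RNA sequencing. The authors deposited raw UMI counts per gene and cell, aligned to mm10. Their processing notes name Cell Ranger 3.0.2 and Seurat 2.3.4, while the file headers give Cell Ranger 4.0.0 for the libraries numbered 1 and 2 (32286 genes, human ZFYVE9 included) and 3.1.0 for the others (31053 genes), so genes were joined by Ensembl ID (30406 shared). No genotype was reassigned.

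Counts were summed per library over all leukocytes and over each class, with at least 10 cells for a library to enter. Genes were filtered with filterByExpr, scaled by TMM and tested with edgeR 4.0.16 (R 4.3.3), two-sided, at a Benjamini-Hochberg adjusted p of 0.05 over all genes tested. Library numbers, shared by the labels of both groups, paired the libraries by the data, since every same-number correlation of deviations was above 0.1: 0.185, 0.150 and 0.620 in leukocytes, 0.216, 0.188 and 0.517 in macrophages and 0.219, 0.186 and 0.465 in Cd209a dendritic cells. In leukocytes, however, the library labelled PBS 1 correlated more with bleomycin 2 (0.291) and that labelled PBS 2 with bleomycin 1 (0.287), as PBS 1 did with bleomycin 2 in macrophages (0.336), so the numbers chiefly set the libraries numbered 3, which differ in sex and gene list, apart from the others. The fit with this block is given beside many results whose call it changes, while some genes of the classes are given as CPM values alone. DESeq2 1.42.0, no low-count filter, no TMM, other gates, leaving out libraries and leaving out shared barcodes were the alternatives.

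A cell took the class with the most of its 6 markers found, at least 2 and more than any other class. Cells flagged as doublets by scanpy 1.11.5 were 1.09% to 4.52% of leukocytes and were kept in. Shares were thinned to 1000 UMIs per cell, which leaves out cells below that number, and compared by exact permutation over libraries. Intervals and floors cover counting error only. The floor of a share at 0 is 3 counts. Tested on simulated data, edgeR recovered 64% of genes changed by a log2 fold of 2 and 0% of those changed by 1 in the leukocyte comparison (82% and 13% with the block), and 77.5% at 2 and 1% at 1 in macrophages without it. The simulated means held no effect of library number, so these figures do not show what the block gains in the data. Of the leukocyte calls made with the block in these simulations, 7.87% at a log2 fold of 2 and 21.2% at 1 were unchanged genes, above the nominal 5%.

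Members, classes and gene lists were chosen with earlier results of these data known. Named genes are the called genes of largest change whose libraries do not overlap (10 CPM or more on average in either group), the leading members of each list, the gate markers and genes that the study discusses for leukocytes. A few genes named from the blocked fits were chosen after their values were seen. Gene positions come from GENCODE vM21 on GRCm38. One called gene is not reported here.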

Additional observations from a re-analysis of the deposited data

Results flagged for a closer look

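The direction in the single SARATg pair, in which both libraries carry the transgene, was opposite to that of every SARAWT library compared for the following genes, a difference that was not tested because each SARATg group has 1 library. Values are log2 ratios of bleomycin over PBS in the SARATg pair.

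Over all leukocytes the ratio was -1.39 for Arg1, which was higher in SARAWT bleomycin libraries (in macrophages the Arg1 ratio was 2.39, the same direction as SARAWT), and 0.0762 for Hmox1, which was lower. In macrophages it was -1.59 for Gpat3 and -0.0747 for Apoe, both higher in SARAWT bleomycin libraries, and 0.18 for Sh3d19, which was lower.

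In monocytes the interferon-stimulated genes Ifit3, Ifi44, Irf7 and Ifi27l2a stood at -1.76, -1.31, -0.0922 and -0.0810 Ly6c2 at -0.54 and Pianp at -2.98, all of them higher in the SARAWT bleomycin libraries, and Mid1ip1 at 0.0458, lower there. In neutrophils Tnf, Icam1, Dusp2 and Apoe stood at -0.27, -0.12, -0.41 and -1.16, again higher in SARAWT, and S100a8 and S100a9 at 0.32 and 0.56, lower in SARAWT. In γδ T cells Areg was at -1.23, Trdv4 at -0.25, H2-Aa at -0.65, H2-Eb1 at -0.17 and Cd74 at -0.69, all higher in SARAWT, Sema6d was at 0.23 and lower, and in αβ T cells Ccl5 was at -2.92. In Cd209a dendritic cells the haemoglobin gene Hbb-bs was at 2.31 and lower in SARAWT.

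Tpm3-rs7 ran against the treatment in the 4 classes that lack the library labelled PBS 2, at 5.27 in monocytes, 3.16 in neutrophils, 2.31 in γδ T cells and 2.39 in αβ T cells, and Setd5 did so at 0.30 in monocytes and 0.0214 in neutrophils. Both were lower in SARAWT bleomycin libraries, where the controls are the libraries labelled PBS 1 and PBS 3.

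The human ZFYVE9 entry, which enters no comparison, was found in the leukocytes of all 4 SARAWT libraries that list it, at 875 and 203 CPM in those labelled PBS 1 and 2 and at 91.4 and 112 CPM in bleomycin 1 and 2. In the library labelled PBS 2 it was at 172 CPM in leukocytes whose barcode occurs in another library and at 316 CPM in those whose barcode does not. Groups of 3 libraries were not tested for a library far from the others.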

How the results depend on the processing

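Counts of genes called moved most, and the cause was not tested. With the replicate block they were 30 in leukocytes, 393 in macrophages, 83 in monocytes, 119 in Cd209a dendritic cells, 22 in neutrophils, 129 in γδ T cells and 18 in αβ T cells, against 0, 20, 0, 0, 0, 0 and 2 without it. In the same order DESeq2 called 245, 301, 36, 161, 3, 31 and 31, and dropping the low-count filter gave 11, 347, 235, 158, 27, 143 and 162. Leaving out 1 library gave 0 to 45 (45 without the library labelled PBS 3), 0 to 415, 0 to 4, 0 to 81 (81 without the library labelled PBS 3), 0 to 9, 0 to 13 and 1 to 13. Without shared barcodes 13 genes were called in macrophages, 7 in Cd209a dendritic cells, 5 in γδ T cells and 1 in αβ T cells. Without the libraries labelled PBS 1 and PBS 3 the counts were 1 in macrophages and 3 in Cd209a dendritic cells. Alternatives chosen after seeing the data gave 285, 1181, 192, 193, 18, 77 and 9 calls with the libraries numbered 1 and 2 alone, 11 in leukocytes and 7 in Cd209a dendritic cells with the replicate block but without the library labelled PBS 2, and 626 in leukocytes by DESeq2 with the block.

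Differences in share changed sign in 5 classes. Macrophages went from -0.46 points to 3.20 without thinning, 1.38 at 500 UMIs, 0.988 without shared barcodes and 0.0813 (log2) with the replicate block, and ran from -8.87 to 6.44 with 1 library left out. Natural killer cells went from -0.0461 to 0.375, to 0.0315 with 1 marker, 0.0804 without shared barcodes, 0.0727 without the libraries labelled PBS 1 and PBS 3 and 0.178 (log2) with the block, and ran from -0.291 to 0.258. Ccr7 dendritic cells (-0.396) and mast cells (-1.52) turned to 0.0995 and 0.485 without those 2 libraries, and Ccr7 dendritic cells ran from -0.991 to 0.447. Neutrophils (4.38) ran from -1.92, without bleomycin 3, to 8.49. Cd209a dendritic cells stayed lower, from -9.52 to -5.63, and γδ T cells higher, from 3.18 to 4.86, with each library left out.

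Among log2 differences of single genes, 2227 stayed on the same side of the threshold, 705 passed it newly, 123 no longer passed and 28 changed sign, none of them called without the block. Over all leukocytes, without the libraries labelled PBS 1 and PBS 3, Il13 turned to 2.41, Gata3 to 0.607 and Tgfb1 to -0.000478, and in the same setting Gjb2 turned to 6.57, Gja1, Lgals7 and Tpm3-rs7 in macrophages to 0.568, 1.01 and 0.599 and Tpm3-rs7 in Cd209a dendritic cells to 8.34. The values of Gjb2 and of Tpm3-rs7 in Cd209a dendritic cells depend on the prior count of the fit. Over all leukocytes Gata3 ran from -1.23 to 0.0897, the latter without the library labelled PBS 3. Tgfb1, near 0, was also -0.117 without shared barcodes (-0.0267 in macrophages), -0.0493 with the libraries numbered 1 and 2 alone and -0.00697 without TMM, and ran from -0.0406, without bleomycin 3, to 0.138 with 1 library left out. Cd209a in its dendritic cells, likewise near 0, was -0.00904 by DESeq2, -0.0205 without the low-count filter, -0.172 without the libraries labelled PBS 1 and PBS 3, -0.0798 with the libraries numbered 1 and 2 alone and from -0.0589 to 0.0760 with 1 library left out. Il1b in neutrophils ran from -0.37, without bleomycin 1, to 0.509 and was -0.0895 without the library labelled PBS 1. In γδ T cells Il17a was 0.287 with the replicate block and ran from -0.78 to 1.02, and Il17f ran from -1.50 to 0.126, the highest value of each being without the library labelled PBS 1. The shallow library labelled PBS 2 limits what low genes and rare classes can show.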
